A study of Mus musculus with 27 samples.

Results

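At day 10 of differentiation, mouse embryonic stem cells carrying a short hairpin RNA against Sox17 were compared with cells carrying one against firefly luciferase, a gene that mouse cells lack. The comparison holds 2 arrays titled for Sox17 shRNA and 2 titled for luciferase shRNA, which are 4 of the 27 arrays in the series. All were AB2.2 cells that had taken up a lentivirus encoding the hairpin together with enhanced green fluorescent protein, were sorted for green fluorescence, grew as embryoid bodies from hanging drops and, 4.5 days on, were plated for attached growth. RNA came from the whole culture, so the arrays average over every cell type in it. In such bulk samples, fewer cells of a type and less RNA per cell cannot be told apart. Both arms were also sampled on 6 earlier days between day 0 and day 8. The labels call the replicates biological and do not say whether each came from its own transduction. The p-values therefore set each difference against the spread between replicate samples. For each gene that spread was pooled over the replicates of all 14 groups of the series. It is shared by both arms and is not that of the day 10 arrays alone. The label of each group names 1 hairpin target, and whether 1 or several hairpin sequences were used is not stated there.

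Sox17 is a transcription factor of the SoxF group, with Sox7 and Sox18, that acts in endoderm and in the lining of blood vessels. In mouse embryos and embryoid bodies, endoderm lies beside the mesoderm that forms the heart and is a source of signals for it. Embryoid bodies can form contracting heart muscle among stromal, endodermal and blood-forming cells. The series was built to find genes that depend on Sox17, and its title names Hhex and Cer1 as mediators of heart mesoderm formation.

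Levels are given on the deposited log2 scale, where 1 unit is a factor of 2, and differences are Sox17 shRNA minus luciferase shRNA. The targeted gene was lower in the arm that carries its hairpin. Sox17 measured 6.71 and 7.19 in the Sox17 shRNA arrays, against 9.99 and 9.98 in the luciferase arrays, a difference of -3.03 (SE 0.80, adjusted p = 0.0205 by limma with Benjamini-Hochberg adjustment over 13297 genes). The groups did not overlap, and the Sox17 shRNA arrays stayed well above the level of 3.69 measured before differentiation in that arm. Leaving out any 1 of the 4 arrays kept the difference between -3.27 and -2.79, but the call was lost each time. Such a fit leaves 1 array in an arm, which widens the error whichever array is left out. Sox7, a SoxF factor of primitive endoderm and vessels, measured 5.85 and 5.25 in Sox17 shRNA arrays, against 8.26 and 8.20 in luciferase arrays (difference -2.68, SE 0.38, adjusted p = 0.000135). Sox18 measured 7.15 and 5.63, against 7.29 and 7.23, and did not pass the test (adjusted p = 0.25). Hhex, a homeobox factor of anterior endoderm, measured 6.57 and 6.24, against 6.87 and 6.75 (adjusted p = 0.734). Cer1, a secreted inhibitor of Nodal, Bmp and Wnt ligands, lay between 3.73 and 3.93 in all 4 arrays, below the median of 5.53 over all values in the series, so neither mediator gave a call at this day.

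The Sox17 shRNA arrays differed from each other more than the luciferase arrays did. The SD of the difference between replicates over all genes was 0.332 in the Sox17 shRNA arm and 0.105 in the luciferase arm, and 202 genes against 5 differed by at least 1 unit. Replicate 1 of the Sox17 shRNA arm was low in the Y-linked genes Eif2s3y and Uty. Eif2s3y, a translation factor subunit, measured 3.09 and 9.20 in Sox17 shRNA arrays, against 8.98 and 8.98 in luciferase arrays, and Uty, a demethylase relative, measured 3.26 and 7.36, against 6.87 and 7.00. Over the 7 days sampled, Eif2s3y stayed between 3.09 and 3.41 in Sox17 shRNA replicate 1, against 8.66 to 9.20 in the 6 arrays of Sox17 shRNA replicate 2 and 8.05 to 9.30 in the luciferase arrays numbered 1. The same array was low in the imprinted genes Grb10 (6.82 and 12.60, against 11.49 and 11.56) and Nnat (5.68 and 11.52, against 11.25 and 11.15), and neither was called as an arm difference (adjusted p = 0.742 and 0.515). Grb10 was at 7.38 or less in each Sox17 shRNA array numbered 1. These 4 genes were picked after their values were seen. Replicate 1 was also higher than replicate 2 in genes of visceral endoderm, such as Ttr by 3.61 units and Apoa1 by 2.37, and in the embryonic globin Hbb-bh1 by 2.24. Replicate 2 was higher in the sarcomere genes Myl2 and Acta1, the second on chromosome 8, by 2.49 and 2.48 units. The log2 difference between the 3′ and 5′ probe sets of actin, a measure of RNA quality, was 0.53 and 0.53 in Sox17 shRNA arrays, against 0.52 and 0.54 in luciferase arrays. Results that rest on such lists are given with and without each array. Each such fit leaves 1 array in an arm, so a call can be lost while the difference hardly moves. A lost call alone therefore does not show that a difference rests on the array left out.

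Genes of chromosomes 6 and 8 stood apart from the rest of the genome in the Sox17 shRNA arm. The median difference was 0.30 over 674 genes of chromosome 6 and 0.29 over 716 genes of chromosome 8. Against the luciferase mean, replicates 1 and 2 of the Sox17 shRNA arm had medians of 0.35 and 0.22 on chromosome 6 and of 0.37 and 0.21 on chromosome 8. The 18 other chromosomes had medians between -0.07 and 0.05 in these arrays. The share of genes called higher was 24.2% on chromosome 6 and 21.9% on chromosome 8, against 1.26% to 8.49% on the others. At day 0 the single Sox17 shRNA array showed a median of 0.30 on chromosome 6 and 0.08 on chromosome 8, and from day 2 on all 12 arrays of the arm lay between 0.14 and 0.35 on chromosome 6 and between 0.12 and 0.37 on chromosome 8. This split by chromosome was chosen after seeing the data, and its part in the results below was not tested. Named genes that lie on these chromosomes are marked as such.

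**Figure D1:**
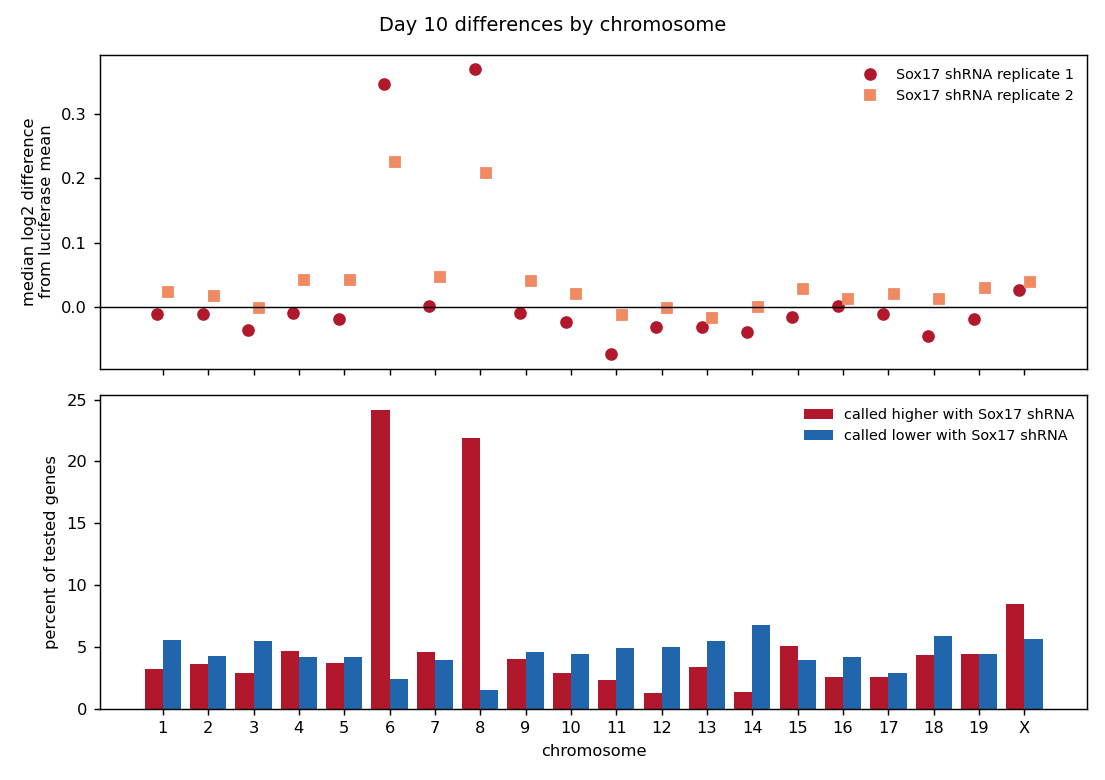
Day 10 differences by chromosome. Upper panel: median log2 difference of each Sox17 shRNA array from the luciferase mean, over the tested genes of each chromosome. Lower panel: percent of those genes called higher or lower with Sox17 shRNA. Chromosomes 6 and 8 lie at 0.35 and 0.37 in replicate 1 and at 0.22 and 0.21 in replicate 2, and the others lie between -0.07 and 0.05.

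Of the 13297 genes tested, 1330 differed between the arms at an adjusted p below 0.05, which is 10.0% of the genes. The call was higher for 747 genes (5.62%) and lower for 583 (4.38%), and the median difference over all genes was 0.02. The shares of 5.62% higher and 4.38% lower are the background for the counts of list members below. Differences of at least 2-fold were found for 190 higher genes (1.43%) and 241 lower genes (1.81%). Without the genes of chromosomes 6 and 8, 391 were higher and 511 lower of 11907 tested, so the higher share of the calls was 43.3%, against 56.2% over all genes. In each of the 1330 called genes the 2 Sox17 shRNA arrays lay on one side of the 2 luciferase arrays. Separation of the groups in a called gene therefore adds nothing to its call. The count was 743 without Sox17 shRNA replicate 1, 1007 without Sox17 shRNA replicate 2, 540 without luciferase replicate 1 and 565 without luciferase replicate 2.

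The largest fall was that of Srgn, which encodes serglycin, the core protein of secretory granule proteoglycans in blood and endothelial cells. Srgn measured 6.12 and 5.72 in Sox17 shRNA arrays, against 11.42 and 11.39 in luciferase arrays, a difference of -5.49 (44.8-fold lower, SE 0.88, adjusted p = 0.00045). The arms were already apart in Srgn from day 2 on, so the gap is not particular to day 10. Igfbp1, a secreted binding protein for insulin-like growth factors, measured 4.93 and 3.87, against 9.57 and 9.49 (difference -5.13, 35.0-fold lower, SE 0.23, adjusted p = 1.91e-10). The Sox17 shRNA arrays stayed below 5 for Igfbp1 throughout the course, while the luciferase arrays were near 4 through day 6 and then climbed. Other genes among the 15 lowest were Gkn2, a gastrokine on chromosome 6 (6.37 and 6.32, against 10.08 and 10.01), the membrane aminopeptidase gene Enpep (4.23 and 3.67, against 7.37 and 7.44), and F3, the receptor that starts blood clotting (6.46 and 8.63, against 10.79 and 10.72). The call of F3 was lost without Sox17 shRNA replicate 1 (difference -2.13, adjusted p = 0.115). Tecrl, a reductase-like gene expressed in heart, measured 3.86 and 3.82 with Sox17 shRNA, against 7.01 and 6.95 with luciferase shRNA. Of the remaining genes among the 15 lowest, 7 belong to the sarcomere and are described next, with Foxd1 and Zic1 given further on.

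**Figure D2:**
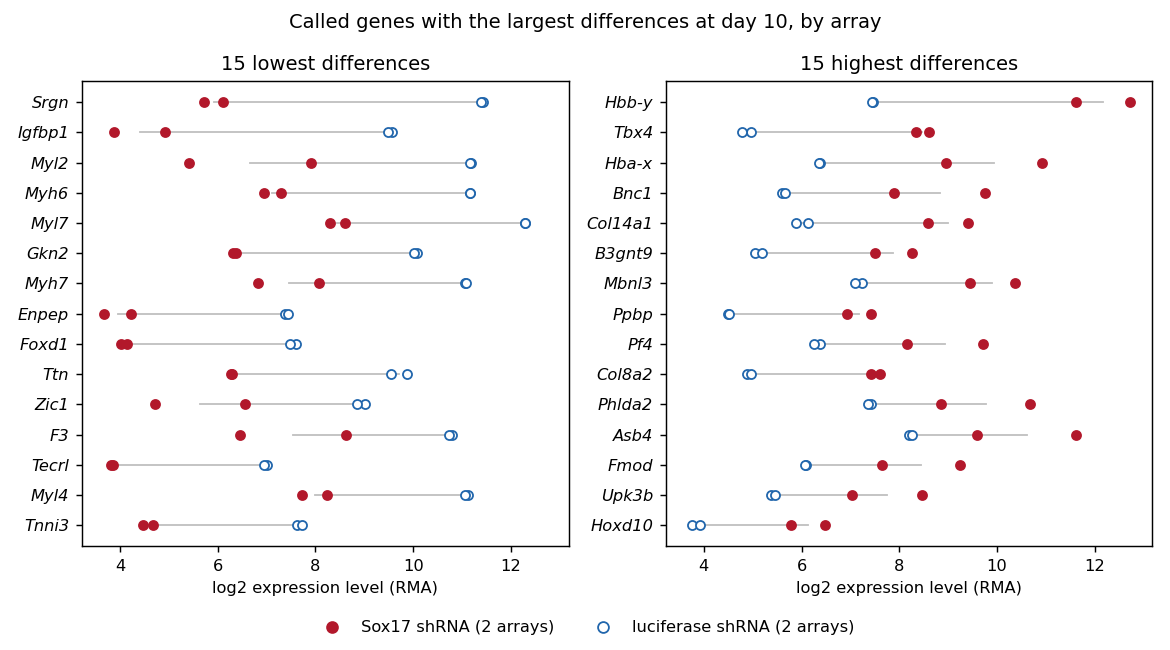
Log2 level in each day 10 array for the 15 called genes with the lowest and the 15 with the highest difference (filled, Sox17 shRNA; open, luciferase shRNA; lines join the group means). As in every called gene, the 2 groups are separated, from Srgn at -5.49 to Hbb-y at 4.72. The Sox17 shRNA replicates lie further apart than the luciferase ones in most of these genes.

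Genes of the heart muscle sarcomere were the list with the largest share of lower calls. Of 26 tested genes of the cardiac contractile apparatus, 20 fell and 0 rose, and the median difference was -2.52, against 0.02 over all genes. Myh6, the alpha myosin heavy chain of the mouse heart, measured 6.94 and 7.29 in Sox17 shRNA arrays, against 11.15 and 11.16 in luciferase arrays (difference -4.04, 16.4-fold lower, SE 0.15, adjusted p = 1.41e-11). Myl7, the regulatory light chain of atrial and early heart muscle, measured 8.61 and 8.29, against 12.29 and 12.28 (difference -3.83, SE 0.37, adjusted p = 1.5e-06). Titin, the giant elastic protein encoded by Ttn, fell in the same way, with 6.29 and 6.26, against 9.87 and 9.55. Groups did not overlap in any of the 20 called members, as in every called gene. Myl2, the ventricular regulatory light chain, showed the widest gap between replicates, at 5.42 and 7.91 in Sox17 shRNA arrays, against 11.18 and 11.16 in luciferase arrays. Troponin genes also fell, among them Tnnt2 (8.27 and 8.26, against 10.96 and 10.97) and Tnni3, the adult cardiac troponin I (4.47 and 4.68, against 7.62 and 7.73). Actc1, cardiac actin, measured 10.26 and 10.04, against 12.82 and 12.82, and so remained well above the array median with the hairpin. Myh7 and Myl4 had differences of -3.61 and -3.12, and another probe set of Myl4 gave 0.07, so the 2 sets of that gene do not give the same result. The 6 members that did not pass, Acta1, Tpm1, Des, Cryab, Pdlim3 (on chromosome 8, like Acta1) and Unc45b, had differences between -0.66 and 0.43. Leaving out 1 array in turn left 18 to 20 called members, and leaving out chromosomes 6 and 8 left 20.

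The calcium and energy genes of heart muscle moved with the sarcomere, in smaller numbers. Of 18 tested genes for calcium handling and excitation, 7 fell and 0 rose (median -0.36). Ryr2, the calcium release channel, measured 5.51 and 5.26 with Sox17 shRNA, against 7.57 and 7.54 with luciferase shRNA, and Pln, the inhibitor of the calcium pump, measured 4.97 and 6.01, against 8.23 and 8.20. Slc8a1, Kcnj5 and Hrc, which encode a sodium-calcium exchanger, an atrial potassium channel and a calcium store protein, differed by -1.32, -1.26 and -1.06. Of 14 heart metabolism and hormone genes, 7 fell and 0 rose (median -0.82). Nppa, the atrial natriuretic peptide, measured 4.05 and 4.45, against 6.12 and 6.15, and Smpx, a small muscle protein, differed by -2.25. Without 1 luciferase array that second list had 3 or 4 called members, and without 1 Sox17 shRNA array it had 5. Its members Ankrd1 and Cox7a1 lost their calls without luciferase replicate 1 (adjusted p = 0.0801 and 0.0513) and replicate 2 (adjusted p = 0.0982 and 0.0738). Ankrd1 also lost its call without Sox17 shRNA replicate 1 (difference -0.56), and Cox7a1 without Sox17 shRNA replicate 2 (difference -1.01).

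Cardiac transcription factors did not move as one. Of 22 tested, 5 fell and 2 rose, with a median of -0.12. Nkx2-5, an early homeobox factor of heart progenitors, measured 6.19 and 6.12 in Sox17 shRNA arrays, against 7.81 and 7.72 in luciferase arrays (difference -1.61, SE 0.22, adjusted p = 0.000108). Myocd, a coactivator of muscle genes, measured 6.23 and 6.33, against 8.11 and 8.09, and Hopx, a small homeodomain protein of heart, differed by -1.60. Gata4, a zinc finger factor of heart and endoderm, measured 7.74 and 7.09, against 8.77 and 8.83 (adjusted p = 0.0066), and its adjusted p was 0.0911 without Sox17 shRNA replicate 2, 0.0509 without luciferase replicate 1 and 0.0601 without luciferase replicate 2. Hand1, a factor of extraembryonic mesoderm and of the left ventricle, went the other way, with 9.26 and 8.91, against 7.53 and 7.62 (difference 1.51, SE 0.20, adjusted p = 5.5e-05). Tbx20, Hand2 (on chromosome 8) and Gata6 had differences of 1.27, 1.32 and 0.96 that did not pass the test, and Tbx5 differed by 0.18. Without Sox17 shRNA replicate 1 the list had 6 lower members, and without each of the other arrays it had 3. Heart muscle markers summed on the linear scale lay at 10.67 to 10.80 in log2 with Sox17 shRNA, against 13.54 with luciferase shRNA. Skeletal muscle genes gave 0 calls of 9 tested, with Myod1 between 5.32 and 5.55 in all 4 arrays. The smooth muscle list gave 1 call of 14, a higher one (7.14%, near the 5.62% of all genes). The smooth muscle actin Acta2 measured 13.23 and 13.58, against 12.95 and 12.92, without passing (adjusted p = 0.408).

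**Figure D3:**
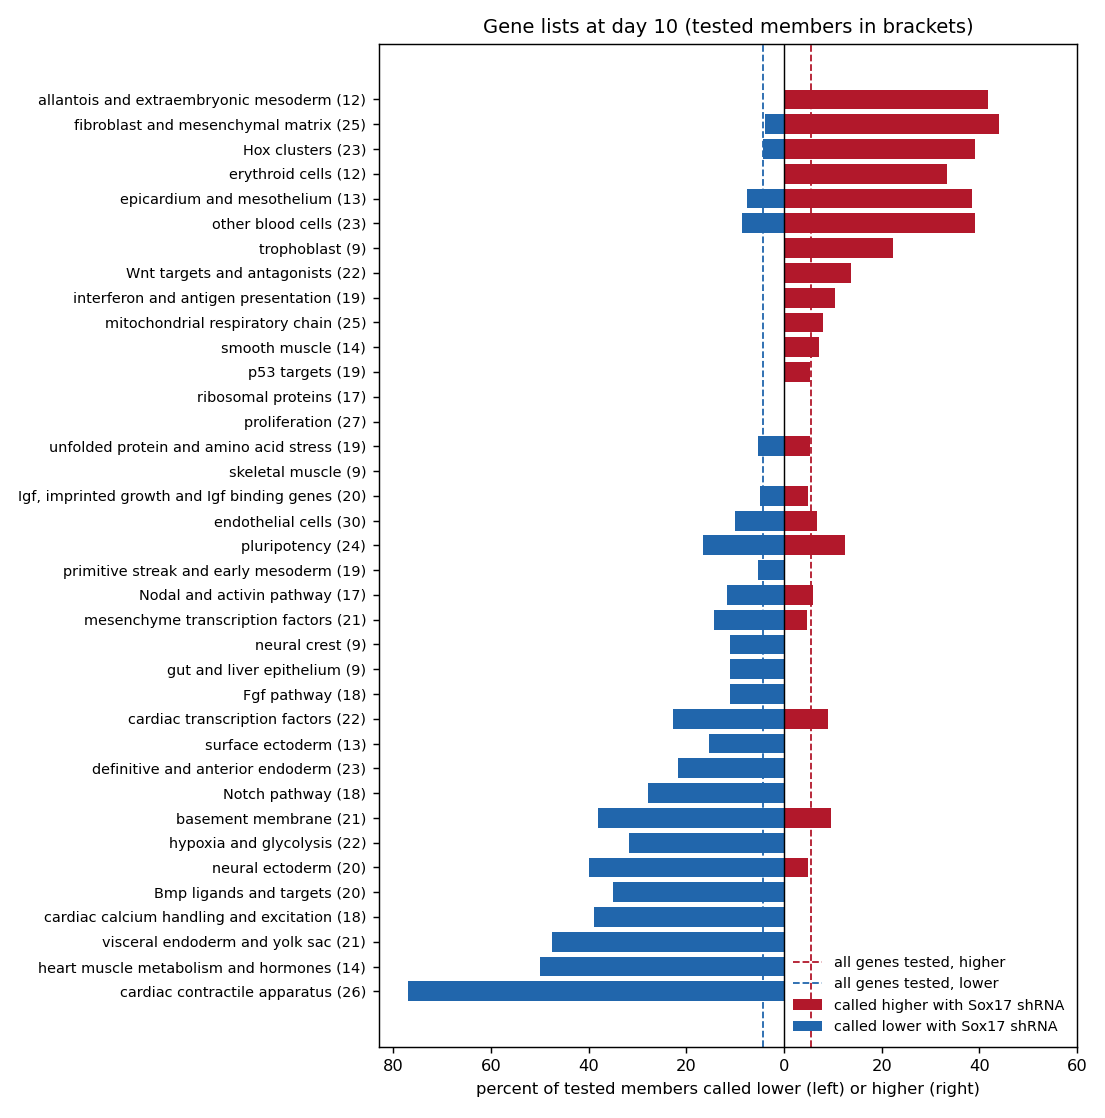
Percent of the tested members of each gene list called lower (left) or higher (right) with Sox17 shRNA at day 10. Dashed lines give the share of all genes tested (4.38% lower, 5.62% higher). Lists with fewer than 9 tested members are not drawn, which leaves out the SoxF list with 3. The lists of heart muscle (contractile, calcium and metabolism), visceral endoderm, neural ectoderm, basement membrane and Bmp genes extend furthest to the left. The fibroblast matrix, allantois, Hox, other blood, epicardium and erythroid lists extend furthest to the right.

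The promoters of 2 heart genes that fell and of 2 globin genes that rose are shown because their groups lay far apart. Myh6 and Myl7 had the largest falls of the sarcomere list after Myl2, and Hbb-y and Hba-x the largest rises of the erythroid list. Each line is the 250 bases before the start of transcription in RefSeq GRCm38.p6, read 5′ to 3′ on the strand of the gene, with capitals marking a SOX core (ATTGT) or a TATA box (TATAAA). The windows are chr14:54966608-54966857 on the minus strand for Myh6, chr11:5898783-5899032 on the minus strand for Myl7, chr7:103853208-103853457 on the minus strand for Hbb-y and chr11:32276350-32276599 on the plus strand for Hba-x.
Myh6: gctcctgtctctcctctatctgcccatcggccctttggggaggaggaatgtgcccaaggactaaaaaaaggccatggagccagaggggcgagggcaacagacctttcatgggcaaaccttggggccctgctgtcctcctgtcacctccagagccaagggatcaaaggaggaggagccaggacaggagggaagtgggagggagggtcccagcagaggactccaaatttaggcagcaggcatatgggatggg
Myl7: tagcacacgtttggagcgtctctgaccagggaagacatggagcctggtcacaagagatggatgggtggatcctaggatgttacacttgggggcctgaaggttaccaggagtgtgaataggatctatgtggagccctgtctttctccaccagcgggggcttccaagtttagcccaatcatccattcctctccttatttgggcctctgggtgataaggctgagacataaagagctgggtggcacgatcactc
Hbb-y: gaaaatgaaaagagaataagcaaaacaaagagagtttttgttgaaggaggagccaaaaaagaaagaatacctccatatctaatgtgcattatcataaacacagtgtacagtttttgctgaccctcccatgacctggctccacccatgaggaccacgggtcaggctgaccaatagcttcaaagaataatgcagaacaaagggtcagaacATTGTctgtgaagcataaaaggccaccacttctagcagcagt
Hba-x: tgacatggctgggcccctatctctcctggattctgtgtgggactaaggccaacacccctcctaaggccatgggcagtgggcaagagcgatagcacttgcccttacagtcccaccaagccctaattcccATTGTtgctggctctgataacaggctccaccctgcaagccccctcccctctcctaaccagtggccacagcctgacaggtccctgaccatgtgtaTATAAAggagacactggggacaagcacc
A GATA core, spelled AGATAA, was searched as well. All 3 motifs were looked for on both strands, over the 250 bases before and the 50 after each start. The motifs do not overlap each other in these windows. A SOX core starts 42 bases before the start of Hbb-y and 122 bases before that of Hba-x, and the TATA box of Hba-x starts 28 bases before the start. In Myh6 the TATA letters begin at base 2 after the listed start, outside the printed stretch, and Myl7 has none of the 3 motifs. Among genes with 1 such window, a SOX core was present for 21.7% of 442 higher genes and 20.8% of 346 lower genes, against 20.2% of all 8528 tested genes. The GATA core was present for 6.335% of higher genes and 6.65% of lower genes, against 6.02% of tested genes. The TATA box was present for 8.145% of higher genes and 8.092% of lower genes, against 7.598% of tested genes. These shares describe the letters in the windows.

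Genes of stromal matrix were higher with Sox17 shRNA. In the list of fibroblast and mesenchymal matrix genes, 11 of 25 rose and 1 fell, with a median of 0.74. Dcn, the small proteoglycan decorin, measured 10.90 and 10.47 in Sox17 shRNA arrays, against 8.56 and 8.42 in luciferase arrays (difference 2.20, SE 0.25, adjusted p = 1.05e-05). Col1a1 and Col1a2, the chains of type I collagen, differed by 1.52 and 1.70, and Col1a2 lies on chromosome 6. Lum and Col6a3, which encode lumican and a type VI collagen chain, differed by 1.70 and 1.66. The groups did not overlap in these genes, as in every called gene. The list median against the luciferase mean was 0.69 and 0.72 in the 2 Sox17 shRNA arrays, while single members differed between them, with Col1a2 at 12.68 and 11.73. Bgn, another small proteoglycan, fell to 7.27 and 7.42 in Sox17 shRNA arrays, against 9.43 and 9.44 in luciferase arrays. Without 1 array in turn the list had 7 to 10 higher members, and 7 without luciferase replicate 2. Lum lost its call without Sox17 shRNA replicate 1 (adjusted p = 0.0612) and without luciferase replicate 2 (adjusted p = 0.0516). Of the other genes among the 15 highest, Mbnl3, a splicing regulator, measured 10.36 and 9.45 with Sox17 shRNA, against 7.23 and 7.09 with luciferase shRNA. Asb4, on chromosome 6, lost its call without Sox17 shRNA replicate 1 (difference 1.37, adjusted p = 0.435) and without luciferase replicates 1 and 2 (adjusted p = 0.207 and 0.181), and Phlda2, an imprinted growth regulator, without Sox17 shRNA replicate 1 (difference 1.47, adjusted p = 0.097). Matrix genes outside the lists were also among the 15 highest, including Col14a1 (9.41 and 8.58, against 5.89 and 6.13), Col8a2 (difference 2.59) and Fmod, fibromodulin (difference 2.36).

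Genes of the mesothelium and epicardium, the outer cell layer of the heart, were also higher in part. Of 13 tested, 5 rose and 1 fell, with a median of 0.64. Bnc1, a zinc finger factor of mesothelium and other epithelia, measured 9.76 and 7.90 with Sox17 shRNA, against 5.60 and 5.67 with luciferase shRNA (difference 3.20, SE 0.42, adjusted p = 5.5e-05). Upk3b, an uroplakin of mesothelium, measured 8.46 and 7.04, against 5.37 and 5.45, and Wt1, a zinc finger factor of kidney and epicardium, measured 7.36 and 6.71, against 5.28 and 5.30. Sema3d, a secreted guidance molecule, fell to 4.23 and 5.58, against 7.79 and 7.80. The mesothelial surface protein gene Msln lay between 4.13 and 4.39 in all 4 arrays, below the median of all values. Replicate 1 was the higher Sox17 shRNA array in the called genes that rose, and without it 3 members were called. Aldh1a2, which makes retinoic acid, lost its call without Sox17 shRNA replicate 1 (difference 0.77, adjusted p = 0.21), luciferase replicate 1 (adjusted p = 0.0928) and luciferase replicate 2 (adjusted p = 0.0584).

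Tbx4, a T-box factor of the allantois and hindlimb, had the second highest difference of the comparison. It measured 8.61 and 8.34 in Sox17 shRNA arrays, against 4.96 and 4.77 in luciferase arrays (difference 3.61, 12.2-fold higher, SE 0.21, adjusted p = 3.12e-09), and it was near 4 in the luciferase arm at days 4 to 8. Of 12 tested genes of allantois and extraembryonic mesoderm, 5 rose and 0 fell (median 0.83). Besides Tbx4 and Hand1 they were Plac1, a placental gene, and Hoxa10 and Hoxa11. Plac1 had an adjusted p of 0.046, and it lay between 0.058 and 0.304 without each array in turn. With chromosomes 6 and 8 left out 2 members of the list were called, since Hoxa10 and Hoxa11 lie on chromosome 6 and Plac1 then had an adjusted p of 0.0547.

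Posterior members of the Hox clusters, which pattern the trunk and limbs along the head-to-tail axis, were among the genes that rose. Of 23 tested Hox genes 9 rose and 1 fell, with a median of 0.43. Hoxd10 measured 6.48 and 5.79 with Sox17 shRNA, against 3.77 and 3.93 with luciferase shRNA (difference 2.28, SE 0.23, adjusted p = 2.8e-06). Hoxa10 measured 6.96 and 6.11, against 4.18 and 4.37, and Hoxc10 measured 6.78 and 6.37, against 4.71 and 4.61. Every tested gene of paralog group 10 and above was called higher, namely Hoxa10, Hoxa11, Hoxc10, Hoxd10 and Hoxd13, a grouping made after the values were seen. The rise was not confined to that group. Hoxc8 (difference 1.85), Hoxd8, Hoxc6 and Hoxc4 were called higher too, and Hoxa11 differed by 1.73. Hoxa13, Hoxb13, Hoxc13 and Hoxd11 lay under the filter on low values and were not tested. In the day 10 arrays Hoxa10, Hoxa11, Hoxc10 and Hoxd10 exceeded the filter level of 5.53 with Sox17 shRNA alone. Passing the filter can thus depend on the arm where a gene is high, so being called is not independent of being tested. The same limit holds for genes of other lists. At day 10 Wt1, Upk3b, Ppbp and Dppa2 exceeded that level with Sox17 shRNA alone. Pax6, Sox1 and Trp63 did so with luciferase shRNA alone. All 6 tested Hoxa genes lie on chromosome 6, where Hoxa5 fell (difference -0.55) while Hoxa10 and Hoxa11 rose. The 7 tested Hoxb genes gave no call. Without 1 array in turn 8 to 10 members were higher, and Hoxa5 was not called without any 1 array. With chromosomes 6 and 8 left out 7 members were higher.

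**Figure D4:**
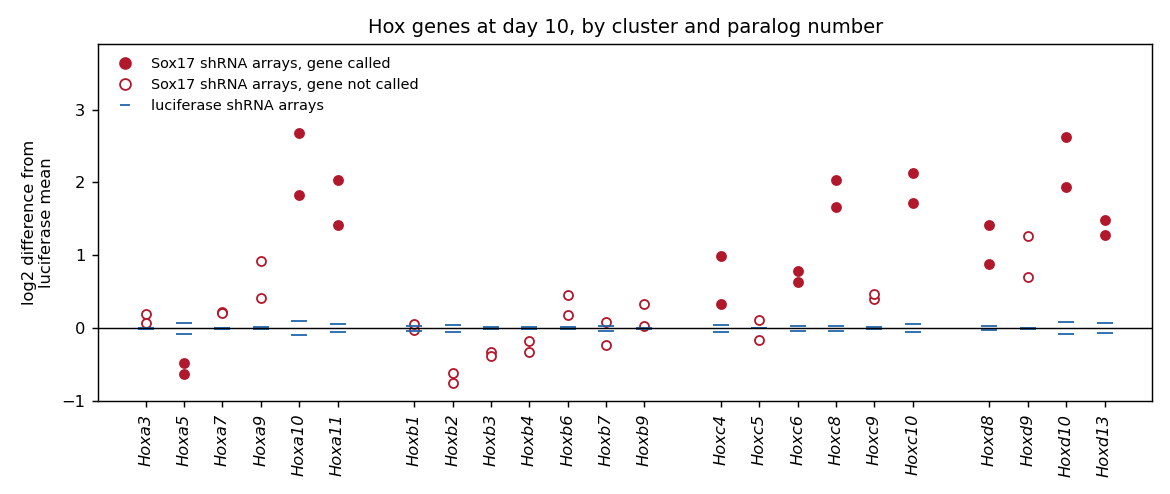
Log2 level of each tested Hox gene in the day 10 arrays minus the mean of the luciferase arrays, ordered by cluster and paralog number. Circles are the Sox17 shRNA arrays, filled where the gene was called, and dashes are the luciferase arrays. The filled points of groups 10 to 13 lie above 1, and Hoxa5 is the called gene below 0.

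An embryonic globin had the highest difference of the comparison. Hbb-y, an embryonic beta-like globin of yolk sac red cells, measured 12.73 and 11.61 in Sox17 shRNA arrays, against 7.47 and 7.43 in luciferase arrays (difference 4.72, 26.3-fold higher, SE 1.22, adjusted p = 0.0185). Hba-x, the embryonic alpha-like globin, measured 10.92 and 8.96, against 6.38 and 6.35 (difference 3.57, SE 1.07, adjusted p = 0.0411). Hbb-bh1, another embryonic globin, measured 11.77 and 9.53, against 8.33 and 8.18, and did not pass (adjusted p = 0.275). The groups did not overlap in these globins, and replicate 1 was the higher Sox17 shRNA array in each. At day 8 Hbb-y stood at 12.16 and 12.81 with Sox17 shRNA, against 10.73 and 10.30 with luciferase shRNA, and the change of its arm difference between days 8 and 10, 2.75, did not pass the test. Of 12 tested erythroid genes 4 rose and 0 fell (median 0.89), among them Alas2, the heme synthesis enzyme of red cells (1.62), and Nfe2, a globin regulator (1.25). The erythroid count was 0 without Sox17 shRNA replicate 1, where Hbb-y had a difference of 4.16 (adjusted p = 0.145) and Hba-x one of 2.59 (adjusted p = 0.323). It was also 0 without either luciferase array and 5 without Sox17 shRNA replicate 2. Summed erythroid markers lay at 12.09 to 13.57 with Sox17 shRNA, against 9.09 to 9.19 with luciferase shRNA.

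Platelet and leukocyte genes rose as well, at lower levels. Of 23 tested genes of other blood cells 9 rose and 2 fell, one of the 2 being Srgn. Ppbp, a platelet chemokine, measured 6.94 and 7.43 with Sox17 shRNA, against 4.50 and 4.52 with luciferase shRNA (difference 2.68, SE 0.22, adjusted p = 2.4e-07). Pf4, platelet factor 4, measured 9.71 and 8.15, against 6.37 and 6.26. Coro1a and Tyrobp, an actin regulator and a signalling adaptor of leukocytes, differed by 1.35 and 1.32. None of 3 defining leukocyte markers gave a call. Ptprc, the pan-leukocyte phosphatase CD45, lay at 4.54 and 4.46, against 3.88 and 3.78, and was not tested because it lay under the filter on low values. Spi1 and Csf1r differed by 0.27 and -0.08 without passing, and the other probe sets of Csf1r gave 0.47 and 0.48. The higher count was 4 without Sox17 shRNA replicate 1, 5 without luciferase replicate 1 and 6 with chromosomes 6 and 8 left out. The lower count was 1 without Sox17 shRNA replicate 2 or without either luciferase array.

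Endothelial genes gave calls in both directions. Of 30 tested 2 rose (6.67%, against 5.62% of all genes) and 3 fell (10%, against 4.38% of all genes), with a median of -0.34. That median joins 2 unlike arrays. Against the luciferase mean the list median was 0.02 in Sox17 shRNA replicate 1 and -0.61 in replicate 2. In 26 of the 30 genes replicate 1 was the higher of the 2. The largest fall of the list was that of Sox7, given above, at -2.68. Its difference lay between -2.98 and -2.38 without any 1 array. Flt1, a Vegf receptor, measured 7.14 and 7.53 in Sox17 shRNA arrays, against 8.72 and 8.59 in luciferase arrays, and Dll4, an arterial Notch ligand, differed by -0.50. Tal1 and Lyl1, related factors of blood and endothelial progenitors, rose by 0.96 and 0.73, and Lyl1 lies on chromosome 8. The count of lower members was 6 without Sox17 shRNA replicate 1 and 1 without either luciferase array. Tal1 and Lyl1 lost their calls without Sox17 shRNA replicate 1 (adjusted p = 0.142 and 0.342) and without either luciferase array. Flt1 also lost its call in those settings (adjusted p = 0.189 without Sox17 shRNA replicate 1), and Dll4 lost it without Sox17 shRNA replicate 2 (adjusted p = 0.22) and without either luciferase array. The junction genes Pecam1 (6.02 and 5.23, against 5.94 and 6.00) and, on chromosome 8, Cdh5 (6.20 and 4.88, against 5.98 and 5.86) had Sox17 shRNA arrays on either side of the luciferase arrays. Kdr, the main Vegf receptor, measured 9.59 and 8.59, against 8.20 and 8.19 (adjusted p = 0.216).

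Endoderm genes were lower where they were called. Of 23 tested genes of definitive and anterior endoderm, 5 fell and 0 rose (median -0.49). Foxa2, a forkhead factor of endoderm, measured 5.99 and 6.56 with Sox17 shRNA, against 7.93 and 7.85 with luciferase shRNA (difference -1.61, SE 0.27, adjusted p = 0.000645). The other called members were Sox17, Gata4, Otx2 and Hnf4a. Sox17 is the target of the hairpin, so its fall is no separate result of this list. Gata4, Otx2 and Hnf4a are also counted in the cardiac factor, neural and visceral endoderm lists. Hnf4a had another probe set of opposite sign, and its adjusted p was between 0.0517 and 0.138 without each array in turn. The endoderm list had 2 or 3 lower members without any 1 array. In the visceral endoderm and yolk sac list 10 of 21 fell and 0 rose, with a median of -1.48. Cited1, a transcriptional coregulator of yolk sac, measured 6.13 and 5.99, against 8.76 and 8.77. Afp, the fetal serum protein of yolk sac and liver, measured 9.53 and 7.66, against 10.70 and 10.70 (difference -2.11, SE 0.48, adjusted p = 0.0076). Ttr, the thyroid hormone carrier, measured 11.30 and 7.69, against 11.46 and 11.44, and did not pass (adjusted p = 0.43). In replicate 1 of the Sox17 shRNA arm Ttr was thus close to the luciferase arrays, while in replicate 2 it was far below. The list median against the luciferase mean was -0.70 in replicate 1 and -1.75 in replicate 2. The count of lower members was 13 without Sox17 shRNA replicate 1, 2 without Sox17 shRNA replicate 2 and 2 without either luciferase array. Afp had a difference of -1.17 (adjusted p = 0.146) without Sox17 shRNA replicate 2.

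Laminin and type IV collagen genes, which build the sheet beneath epithelia and around heart muscle, fell in the basement membrane list, where 8 of 21 were lower and 2 higher. Lama1, the laminin alpha chain of early embryonic basement membranes, measured 8.17 and 8.82 in Sox17 shRNA arrays, against 11.51 and 11.52 in luciferase arrays (difference -3.02, SE 0.49, adjusted p = 0.00053). Lamb1 and Lamc1, the chains that pair with it, differed by -1.56 and -1.25. Col4a2, on chromosome 8, differed by -1.37, while Col4a6 rose by 1.21. The groups did not overlap in these genes, as in every called gene. Lower members numbered 4 without Sox17 shRNA replicate 1, 7 without Sox17 shRNA replicate 2 and 3 without either luciferase array. Col4a2 was among those that lost the call without Sox17 shRNA replicate 1 (difference -1.05, adjusted p = 0.223) and without luciferase replicates 1 and 2 (adjusted p = 0.119 and 0.139).

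Genes of early neural ectoderm were lower. Of 20 tested 8 fell and 1 rose (median -0.58). Pax6, a paired box factor of forebrain and eye, measured 4.38 and 4.27 in Sox17 shRNA arrays, against 6.34 and 6.38 in luciferase arrays (difference -2.04, SE 0.23, adjusted p = 1.05e-05). Six3 and Otx2, factors of the anterior head, differed by -2.07 and -2.52. Zic1 measured 6.55 and 4.72, against 9.02 and 8.85, and its call was lost without Sox17 shRNA replicate 2 (difference -2.38, adjusted p = 0.13) and without luciferase replicates 1 and 2 (adjusted p = 0.0809 and 0.0611). Sox1, on chromosome 8, measured 4.43 and 4.05, against 6.71 and 6.79, and its adjusted p of 0.0388 became 0.116 to 0.184 without each array in turn. Tubb3, a neuronal tubulin on chromosome 8, measured 4.51 and 5.55, against 4.86 and 4.95, so that 1 array lay just above the median of all values. Lower members numbered 8 without Sox17 shRNA replicate 1 and 4 without each of the other arrays. Trp63, the factor of stratified epithelium, fell in the surface ectoderm list to 4.30 and 4.49, against 5.99 and 6.09, but with no filter on low values another of its probe sets stood for it and gave -0.36 (adjusted p = 0.283).

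Foxd1, a forkhead factor of kidney stroma and retina, was the strongest of 3 mesenchyme factors that fell, with 4.02 and 4.15 in Sox17 shRNA arrays, against 7.61 and 7.48 in luciferase arrays (difference -3.46, SE 0.18, adjusted p = 8.1e-10). Foxc1 and Sox9, factors of head and heart mesenchyme and of cartilage, differed by -1.33 and -0.84, and Twist2, a factor of dermal mesenchyme, rose by 1.22. Of 21 mesenchyme factors tested these 4 were called, 14.3% lower and 4.76% higher, against 4.38% and 5.62% of all genes. Sox9 lost its call without Sox17 shRNA replicate 1 (adjusted p = 0.217) and without luciferase replicates 1 and 2 (adjusted p = 0.129 and 0.0786), and Twist2 without Sox17 shRNA replicate 1 (adjusted p = 0.056).

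Among the signalling lists, the Bmp list had the largest share of lower calls, 35.0%. Of 20 Bmp ligands and targets 7 fell and 0 rose (median -0.34). The Id genes, which encode inhibitors of differentiation factors induced by Bmp signals, were all lower, with differences of -0.87 for Id1, -1.07 for Id2, -0.99 for Id3 and -1.77 for Id4. Id1 measured 9.21 and 9.51 with Sox17 shRNA, against 10.23 and 10.24 with luciferase shRNA. The rest of the lower members were the ligands Bmp6 and Bmp7 and Nog, a secreted inhibitor of Bmp ligands (difference -0.95). The count thus holds ligands and an inhibitor beside targets. Leaving out Sox17 shRNA replicate 1 or luciferase replicate 1 left 4 called members. Id4 had an adjusted p of 0.0602 without Sox17 shRNA replicate 1, and Id2 had 0.0822 without Sox17 shRNA replicate 2 and 0.0597 without luciferase replicate 1. In the Notch list 5 of 18 fell, including the target Hey1 (7.43 and 6.90, against 8.55 and 8.55) and the feedback inhibitor Nrarp (-1.22), but 0 were called without Sox17 shRNA replicate 2 or without either luciferase array. Fst, the activin-binding protein follistatin, measured 6.99 and 7.01, against 9.60 and 9.54 (difference -2.56, SE 0.50, adjusted p = 0.0023).

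Wnt2, a ligand of the heart inflow region and lung mesoderm that lies on chromosome 6, was higher, with 8.37 and 7.57 in Sox17 shRNA arrays, against 5.96 and 5.94 in luciferase arrays (difference 2.02, SE 0.21, adjusted p = 3.7e-06). The secreted Wnt antagonists Dkk2 and Sfrp1 rose with it, by 1.58 and 1.52, and no member of the 22 Wnt genes tested fell. Dkk2 had an adjusted p of 0.0506 without luciferase replicate 1, and Sfrp1, on chromosome 8, had 0.0599 without Sox17 shRNA replicate 1. Leaving out chromosomes 6 and 8 left Dkk2 as the called member.

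Of 22 hypoxia and glycolysis genes 7 fell and 0 rose (median -0.57), among them Vegfa, the main endothelial growth factor (8.87 and 8.32, against 9.88 and 9.85), and the glycolytic enzyme Ldha (12.22 and 11.71, against 12.60 and 12.63). The count varied with the array left out. It was 13 without Sox17 shRNA replicate 1, 0 without Sox17 shRNA replicate 2, 1 without luciferase replicate 1 and 2 without luciferase replicate 2. Vegfa had an adjusted p of 0.0816 without Sox17 shRNA replicate 2 and 0.0554 without luciferase replicate 1. Ldha had 0.243 without Sox17 shRNA replicate 2, and 0.102 and 0.116 without luciferase replicates 1 and 2.

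Pluripotency genes split. Of 24 tested 3 rose (12.5%, against 5.62% of all genes) and 4 fell (16.7%, against 4.38%), with a median of 0.40. Dppa2, a germline and stem cell chromatin factor, measured 6.41 and 6.50 with Sox17 shRNA, against 4.50 and 4.39 with luciferase shRNA, and Klf4 measured 6.54 and 7.70, against 9.48 and 9.25. Klf4 had a difference of -1.67 (adjusted p = 0.0662) without Sox17 shRNA replicate 1. Sox2, shared with the neural list, fell by 1.54, with adjusted p of 0.0882 without Sox17 shRNA replicate 2 and 0.0893 and 0.0723 without luciferase replicates 1 and 2. The core markers were higher in value without passing, with Nanog of chromosome 6 at 7.72 and 7.35, against 5.93 and 5.98 (adjusted p = 0.125), Zfp42 of chromosome 8 at 8.25 and 7.46, against 6.22 and 6.28 (adjusted p = 0.0655), and Pou5f1 at 7.36 and 8.17, against 7.21 and 6.86 (adjusted p = 0.514). The list had 1 higher member without each array in turn, and 1 lower member without Sox17 shRNA replicate 1 or without either luciferase array.

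Lists of general cell functions gave few calls. Proliferation genes gave 0 calls of 27 (median -0.07) and ribosomal protein genes 0 of 17 (median -0.03). The mitochondrial respiratory chain gave 2 higher of 25 (8%), Ndufa9 and Ndufa4, both on chromosome 6, and 0 with chromosomes 6 and 8 left out. Ndufa9 lost its call without Sox17 shRNA replicate 1 (adjusted p = 0.276) and without luciferase replicates 1 and 2 (adjusted p = 0.162 and 0.101). Fas, the death receptor and p53 target, rose by 1.57 as the 1 called member of 19 (5.26%). Ifit2, an interferon-induced gene, rose by 1.39 among 2 of 19 (10.5%). Over all genes tested the share called higher was 5.62%, so the p53 list was near that background. Dlk1, an imprinted growth regulator, rose to 12.88 and 12.67, against 11.59 and 11.67.

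Few genes passed a test of whether the arm difference itself changed late in the course. The test of the change in the arm difference between days 8 and 10 called 18 genes, 0.135% of those tested, with 14 moving up (0.105%) and 4 down (0.0301%). For Igfbp1 the difference was -2.25 at day 8 and -5.13 at day 10. Ppbp had a difference of -0.08 at day 8 and 2.68 at day 10, and Wnt2 of -0.15 and 2.02. In the Sox17 shRNA arm Wnt2 was at 7.20 and 6.64 at day 8 and at 8.37 and 7.57 at day 10. In the luciferase arm it was at 7.27 and 6.89 at day 8 and at 5.96 and 5.94 at day 10. Myh6 also passed, since its difference was -5.30 at day 8 and -4.04 at day 10 (change 1.26, adjusted p = 0.021), while that of Tnnt2, -3.79 at day 8 and -2.70 at day 10, did not (adjusted p = 0.0917). Of the 26 sarcomere genes 22 were called lower at day 8, against 2.93% of all genes tested. The number of called genes was 641 at day 8 (4.82%), 691 at day 6 (5.20%) and 1249 at day 5 (9.39%). Against the mean of days 4, 5, 6 and 8 the arm difference at day 10 departed for 285 genes (2.14%), 149 upward (1.12%) and 136 downward (1.02%). Both comparisons reuse the day 10 arrays, so they are not independent of the calls above.

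**Figure D5:**
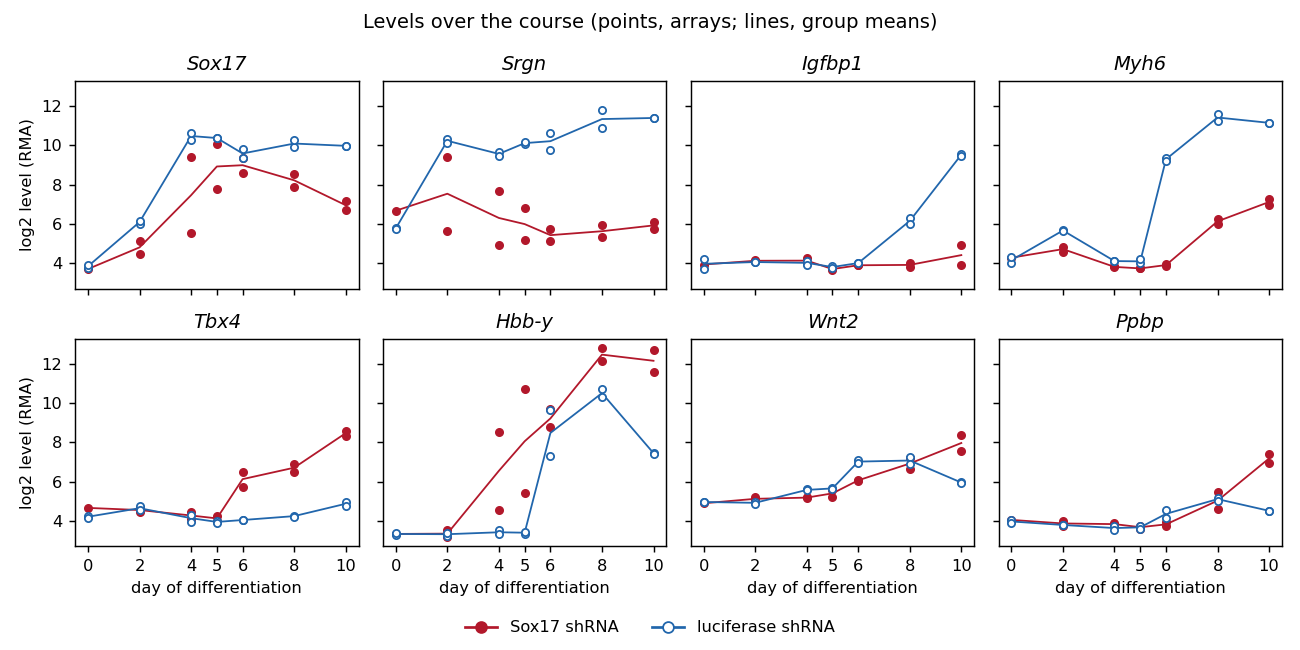
Log2 level of 8 genes in every array by day of differentiation, with points for arrays, lines for group means, Sox17 shRNA in filled red and luciferase shRNA in open blue (1 Sox17 shRNA array at day 0, otherwise 2 in each group). Srgn is apart from day 2 on and Tbx4 from day 6 on, Myh6 shows its wide gap from day 6 on, and Igfbp1, Wnt2 and Ppbp open or widen their gap between days 8 and 10.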

How the data were processed

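Affymetrix arrays of 27 RNA samples in 14 groups (arm by day) were used as the authors' deposited log2 expression values, made with RMA per the submitters' processing notes; its version is not given in the sources used here, nor is it said whether 1 normalisation covered all arrays. RMA sets the arrays to 1 distribution, so differences are relative. Of 45101 probe sets, 34958 had 1 gene symbol in the platform annotation, 932 several and 9211 were not listed; symbols were checked against RefSeq GRCm38.p6 and 0 changed. Probe sets were kept (23536) where at least 2 arrays exceeded 5.53, the overall median, and the set with the highest mean stood for each of 13297 genes. A mean per group was fitted over all arrays with limma 3.58.1 (R 4.3.3; eBayes with intensity trend, Benjamini-Hochberg, threshold 0.05; 13 residual and 4.68 prior degrees of freedom), which treats arrays of different days as independent. The calling script was tested on simulated data. RefSeq placed 13241 genes on chromosomes. Genes are named by a rule: Sox17, Hhex, Cer1, the 15 highest and 15 lowest called differences, up to 5 called members of each list, cell type markers, and the 6 highest and 6 lowest of each test between days; members of small counts, Y-linked, imprinted and uncalled genes beyond it were chosen after their values were seen. The comparison and the 38 gene lists were chosen with earlier results of these data known. No probe set was used for the marker Prl3d1, and 1 result is not reported here. Alternatives changed the filter, probe set choice, variance trend, arrays fitted, scaling, array weights, replicate block and single arrays.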

Additional observations from a re-analysis of the deposited data

Results flagged for a closer look

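The arm difference (Sox17 shRNA minus luciferase shRNA) at day 10 departed from that at day 8 for 18 genes by the limma test of the difference itself. Among those that moved down, Igfbp1 changed by -2.88, Nkx1-2, a homeobox factor of the tail bud, by -2.04, Apela, a peptide ligand of the apelin receptor that lies on chromosome 8, by -1.87 and Emb, an adhesion glycoprotein, by -1.53. Nkx1-2 and Apela were not called at day 10 itself, and neither was Spon1, named next. Among those that moved up, Ppbp changed by 2.75, Wnt2 by 2.17, Nell1, a secreted matrix-associated protein, by 1.93, Spon1, a secreted matrix protein, by 1.89, Prss35, a protease-like protein, by 1.88 and Cpz, a carboxypeptidase, by 1.75. Calls in this test of days were lost for Apela, Nkx1-2, Emb, Prss35 and Spon1 without either luciferase array. They were also lost without Sox17 shRNA replicate 1 for Apela, Nkx1-2, Prss35 and Spon1, without Sox17 shRNA replicate 2 for Apela and Emb, and with the replicate block for Nkx1-2, Emb, Prss35 and Spon1.

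Against the mean of days 4, 5, 6 and 8, the day 10 difference departed for 285 genes. The lowest were Igfbp1 at -4.54, Zic1 at -3.46, Gkn2 at -2.80, Foxd1 at -2.77, Tnni3 at -2.44 and Fst at -2.34. The highest were Ppbp at 2.78, Bnc1 at 2.75, Frem1, an extracellular matrix protein, at 2.63, Col14a1 at 2.49, Wnt2 at 2.46 and Tbx4 at 2.39. Fst lost this call without each array in turn (adjusted p between 0.0957 and 0.205), and Zic1 lost it without Sox17 shRNA replicate 2 or either luciferase array (adjusted p up to 0.25). Gkn2 and Wnt2 lie on chromosome 6. Both tests share the day 10 arrays.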

How the results depend on the processing

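Leaving out chromosomes 6 and 8 and centring arrays within chromosomes were alternatives chosen after seeing the data. Array weights raised the called genes to 2866 (1615 higher, 1251 lower). Without 1 day 10 array the count lay between 540 and 1007, with 272 to 586 higher and 264 to 421 lower. Leaving out chromosomes 6 and 8 gave 391 higher genes and 902 in all, and centring within chromosomes gave 1121, of which 1027 were shared with the 1330. The change from day 8 was called for 7 genes on days 5 to 10 alone, 61 with array weights, 10 with the replicate block and 6 to 40 without 1 array; that from days 4, 5, 6 and 8 for 182 on days 5 to 10 alone, 732 with array weights and 104 to 299 without 1 array. Sox17 differed by -3.27 to -2.79 without 1 array and lost its call each time. An arm with 1 array left is assumed to vary like the other groups. As to pairing, deviations of same-numbered arrays correlated at 0.0986 at day 10 and between 0.102 and 0.683 at the other 5 days. Day 10 thus fell just short of the 0.1 asked of every day, and the numbers were not taken as pairs. The 0.683 was that of day 4, where the mean of the BioB control probe sets was 9.04 and 6.79 in luciferase arrays. It was 9.37 and 6.83 in the Sox17 shRNA arrays of that day. Both day 4 groups enter the pooled spread and the test against days 4, 5, 6 and 8. What this gap adds there was not tested. Within the Sox17 shRNA arm the number 1 goes with low Eif2s3y on every day, so arrays of different days are not fully independent. A replicate block gave 1673 called genes (930 higher, 743 lower).

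Of 137 called named genes, 73 kept their call throughout, 60 lost it without at least 1 array, 4 lost it under other settings alone and 0 reversed. Among 9 uncalled genes the sign turned. Without 1 array Cdh5 ranged between -1.05 and 0.28, Foxd3 between -0.0836 and 0.173, Krt5 between -0.15 and 0.0527, Nkx1-2 between -0.0225 and 0.68, Pecam1 between -0.74 and 0.0556, Sox10 between -0.0983 and 0.0016 and Tubb3 between -0.39 and 0.65. Csf1r gave 0.29 with the mean of its probe sets, and Apela gave -0.15 and Tubb3 -0.13 when centred within chromosomes. The cause was not tested. With 2 arrays a group, the number of arrays limits the precision.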
